A study of Mus musculus with 5 samples.

Results

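The 10 genes of fibroblast growth factor (FGF) signaling described here were measured in prostate tumors of castrated and intact mice. They were taken by symbol from the deposited count table, which holds 24527 genes, and all 10 were found. The 6 ligands were Fgf1, Fgf2, Fgf7, Fgf9, Fgf10 and Fgf18, and the 4 receptors were Fgfr1, Fgfr2, Fgfr3 and Fgfr4. Bulk RNA-seq covered prostate tumors of TripleTg mice, with 3 castrated and 2 intact samples. All 5 samples came from mice that carried a ubiquitously expressed human HGF transgene (hHGFtg), a human MET transgene (H11 hMET/+) and a stabilized β-catenin allele (Ctnnb1 L(Ex3)/+), and in all of them PB-Cre4 switched the MET transgene and the β-catenin allele on. PB-Cre4 is driven by the probasin promoter, which is active in prostate epithelium and depends on androgens. The castrated mice had been operated on at 4 months of age and were analyzed at 8 months beside intact mice of the same genotype and age. No mouse without these transgenes was among the samples, so the comparison was between castrated and intact tumors only. The castrated libraries held 28015507, 18951782 and 20492061 counts (replicates 1 to 3), and the intact libraries 21560355 and 22853501 (replicates 1 and 2).

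FGF ligands are secreted proteins that bind, together with heparan sulfate, to receptor tyrosine kinases and switch on the RAS, ERK, PI3K and PLCγ pathways. In the prostate, stromal cells secrete FGF7 and FGF10, which act on the epithelial splice form of FGFR2 during budding and branching, while FGF2 and FGF9 also signal to stroma and FGFR1 is often raised in prostate cancer. The Sprouty, Spred and dual-specificity phosphatase genes are switched on by the pathway and dampen it, and the ETS factors Etv4 and Etv5 are classical target genes.

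Several libraries stood apart from the others of their group. Intact replicate 2 was the only library with prostate secretory genes. Their summed level was 1417 CPM (read counts relative to the library total, scaled with TMM factors) in that library and between 0.215 and 1.12 CPM in the other 4. Tgm4, a prostate transglutaminase, had 28976 counts there against 1 to 12 elsewhere. Msmb, another secretory gene of the same list of 5, was at 0 in all 5 libraries. Adipocyte genes were high in castrated replicates 2 and 3, with summed levels of 483 and 411 CPM for 7 genes. The same sum was 38.3 CPM in castrated replicate 1 and 26.1 and 52.2 CPM in the intact libraries. Over all tested genes castrated replicate 1 correlated most closely with intact replicate 1 (Pearson's r of log2 CPM 0.922), more than with either of the other castrated libraries (0.910 and 0.885). The luminal keratin gene Krt18 was present in all 5 libraries, between 629 and 1110 CPM, so the labeled prostate tissue had an epithelial component throughout. For the 9 tested FGF genes, fold changes without single libraries are given beside the values.

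None of the 10 FGF genes passed edgeR's quasi-likelihood F-test on the deposited counts, in which a gene needs a p below 0.05 after Benjamini-Hochberg adjustment and a log2 fold change beyond 1 in either direction. The methods of the study name the same test with TPM as input, so these calls are not those of the study. Of all 14612 genes tested, 0 passed (0%), and the smallest adjusted p in the table was 0.289. Of the FGF genes 9 entered the test, while Fgfr4 was left out because its CPM exceeded 1 in only 1 library. At an unadjusted p under 0.05 with the same fold change, 2 of the 9 FGF genes were higher in castrated tumors, Fgf7 and Fgf9, and 0 were lower. The background of all tested genes at that threshold was 7.66% higher and 3.26% lower, 1596 genes in all. In 3 of the 9, Fgf7, Fgf9 and Fgfr1, every castrated library was above both intact libraries, and in 0 every castrated library was below. Over all tested genes, 17% were separated upward in this way and 16.1% downward. The median log2 fold change was 0.87 over the 9 FGF genes and -0.03 over all tested genes. With other tests on the same counts, DESeq2 called Fgf7 and Fgf9, where it called 4.81% of all genes higher. The likelihood ratio test of edgeR called Fgf7 alone, where it called 1.89% of all genes higher.

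**Figure D1:**
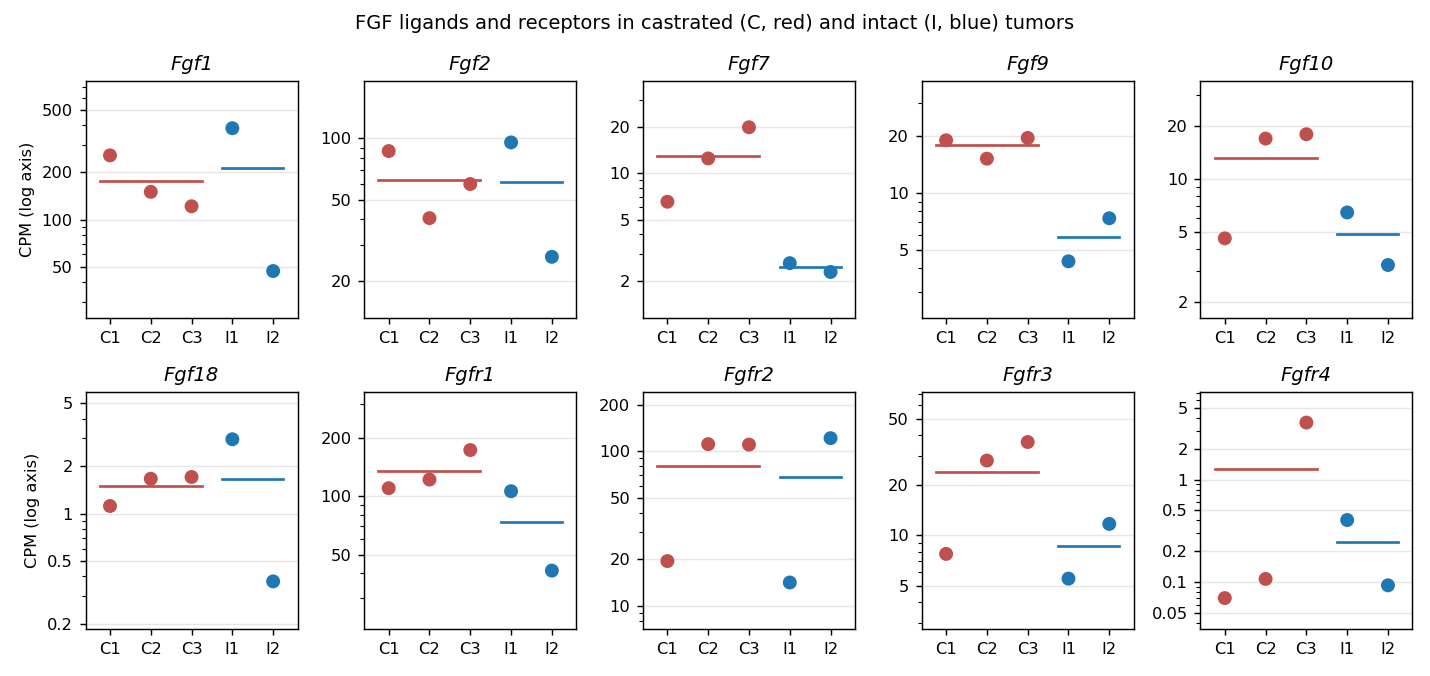
Expression of the 10 FGF genes by library, as TMM-scaled CPM on a log axis, in castrated (C1 to C3, red) and intact (I1 and I2, blue) tumors, with a line at each group mean. The castrated points of Fgf7, Fgf9 and Fgfr1 lie above both intact points, whereas those of the other 7 genes overlap the intact range.

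Fgf7 (mm10, chr2:126034658-126091185, plus strand) encodes keratinocyte growth factor, a mesenchymal ligand of epithelial cells. Its level was 6.53, 12.5 and 19.9 CPM in the castrated libraries and 2.60 and 2.28 CPM in the intact libraries. The lowest castrated library was thus above both intact libraries, which differed from each other by only 1.14-fold, while the castrated libraries spread over 3.05-fold. Its log2 fold change was 2.41 (standard error 0.58), with an adjusted p of 0.289 in edgeR's quasi-likelihood test. Leaving out 1 library at a time moved this log2 fold change between 1.97 and 2.73. DESeq2 gave an adjusted p of 0.00386 and the likelihood ratio test one of 0.0415. In bulk tissue, more cells of a type and more RNA per cell cannot be told apart, which holds for every gene described here.

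Fgf9 (chr14:58072686-58112720, plus strand), whose product binds FGFR3 among other receptors, had the narrowest spread of the castrated group. It stood at 19, 15.2 and 19.5 CPM in castrated and at 4.35 and 7.34 CPM in intact tumors. All castrated values were more than the higher intact value, and the castrated mean of 17.9 ± 2.37 CPM (SD, n = 3) was 3.06-fold the intact mean of 5.85 ± 2.12 CPM (SD, n = 2). The log2 fold change was 1.61 (standard error 0.36), with an adjusted p of 0.289 by the quasi-likelihood test. It ranged from 1.30 to 2.0 when single libraries were left out. DESeq2 gave an adjusted p of 0.00103 and the likelihood ratio test one of 0.0671.

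Fgf10 (chr13:118714699-118792573, plus strand) is the other mesenchymal ligand of the epithelial FGFR2 and is needed for the prostate to bud. Castrated replicates 2 and 3 had 16.9 and 17.9 CPM, while castrated replicate 1 had 4.61 CPM and the intact libraries 6.45 and 3.25 CPM. The groups overlapped through castrated replicate 1, which lay between the intact values. The log2 fold change of 1.43 (standard error 0.71) did not pass, with an adjusted p of 0.396 by the quasi-likelihood test, and ranged from 0.98 (without intact replicate 2) to 2.03 (without intact replicate 1) when single libraries were left out. The 2 libraries with high Fgf10 were those with the adipocyte genes; the part of these cells in the level of Fgf10 was not tested.

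Promoter sequences are shown for the 2 ligands that separated the groups with the smallest p and for Fgfr3, which together with Fgfr4 had the most matches to a motif among the FGF promoters. They are RefSeq windows on GRCm38.p6, the assembly of mm10, and run from 250 bases before to 50 bases after the annotated start, 5′ to 3′. Of the 10 genes, 8 were matched, with 9 promoters, since Fgfr3 has 2; Fgf1 and Fgfr1 had no entry. Capitals mark the SP1 motif GGGCGG on either strand. The windows lie at chr2:126034408-126034707, chr14:58072436-58072735 and chr5:33721474-33721773, all on the plus strand.
Fgf7: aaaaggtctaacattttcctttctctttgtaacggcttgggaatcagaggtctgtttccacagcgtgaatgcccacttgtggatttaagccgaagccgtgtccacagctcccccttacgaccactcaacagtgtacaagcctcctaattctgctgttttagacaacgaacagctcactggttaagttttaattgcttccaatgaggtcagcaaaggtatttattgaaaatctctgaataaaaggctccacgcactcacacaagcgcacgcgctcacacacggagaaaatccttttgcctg
Fgf9: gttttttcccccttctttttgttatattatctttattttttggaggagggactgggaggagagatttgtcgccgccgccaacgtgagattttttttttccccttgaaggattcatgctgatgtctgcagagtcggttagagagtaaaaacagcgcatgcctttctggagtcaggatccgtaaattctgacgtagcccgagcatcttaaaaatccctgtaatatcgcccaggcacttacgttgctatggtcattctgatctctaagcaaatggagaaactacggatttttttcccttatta
Fgfr3: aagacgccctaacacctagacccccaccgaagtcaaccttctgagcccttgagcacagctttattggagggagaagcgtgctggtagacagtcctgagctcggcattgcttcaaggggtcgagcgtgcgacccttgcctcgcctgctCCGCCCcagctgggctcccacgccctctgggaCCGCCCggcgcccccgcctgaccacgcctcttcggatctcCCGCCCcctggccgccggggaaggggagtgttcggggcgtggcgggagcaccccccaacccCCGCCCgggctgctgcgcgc

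In all, 5 motifs were searched on both strands: AGAACA (bound by the androgen receptor), CTTTGAT and CTTTGAA (TCF and LEF factors, partners of β-catenin), GGGCGG (SP1) and GGAAGT (ETS factors). None of the 5 was present in the windows of Fgf7, Fgf9 and Fgfr2. These 3 windows also had the lowest GC content of the 9, at 45.7%, 42.7% and 43.7%, where the median of all promoters was 52.7%. GGGCGG occurred 4 times in the Fgfr3 window shown and 4 times in that of Fgfr4, 2 times in the other window of Fgfr3, and once each in those of Fgf2, Fgf10 and Fgf18. Of 32851 mouse promoters of this length, 35.7% held GGGCGG. The other 4 motifs, AGAACA (19% of all promoters), CTTTGAT (3.73%), CTTTGAA (5.14%) and GGAAGT (23.8%), were found in none of the 9 FGF windows. The absence of these letters says nothing of sites outside the windows.

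Fgf1, Fgf2 and Fgf18 varied between libraries of the same group far more than between the groups. Fgf1 (chr18:38838673-38918699, minus strand) encodes acidic FGF, which can bind every FGF receptor. It stood at 257, 150 and 122 CPM in castrated tumors and at 383 and 47.0 CPM in intact tumors, so the intact libraries held both the highest and the lowest value. The 8.14-fold gap between the intact libraries compares with a castrated mean that was 0.820 times the intact mean. Its log2 fold change was -0.29 (standard error 0.84; quasi-likelihood adjusted p = 0.898). It turned to 1.93 without intact replicate 1 and to -1.16 without intact replicate 2.

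Fgf2 (chr3:37348653-37404830, plus strand), basic FGF, followed the same order at its ends. Its castrated values were 86.6, 40.6 and 59.7 CPM and its intact values 95.5 and 26.2 CPM. The intact values again enclosed the castrated ones, and the log2 fold change was 0.03 (standard error 0.60; quasi-likelihood adjusted p = 0.985). For Fgf18 (chr11:33116978-33147400, minus strand), a ligand of the FGF8 subfamily, only 8 to 66 counts were recorded per library. It stood at 1.12, 1.66 and 1.71 CPM in castrated and 2.96 and 0.372 CPM in intact tumors, with a log2 fold change of -0.16 (standard error 0.88; quasi-likelihood adjusted p = 0.947). For both genes the direction depended on which intact library was kept. The value of Fgf2 was 1.27 without intact replicate 1 and -0.66 without intact replicate 2, and that of Fgf18 was 2.01 and -1.03.

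**Figure D2:**
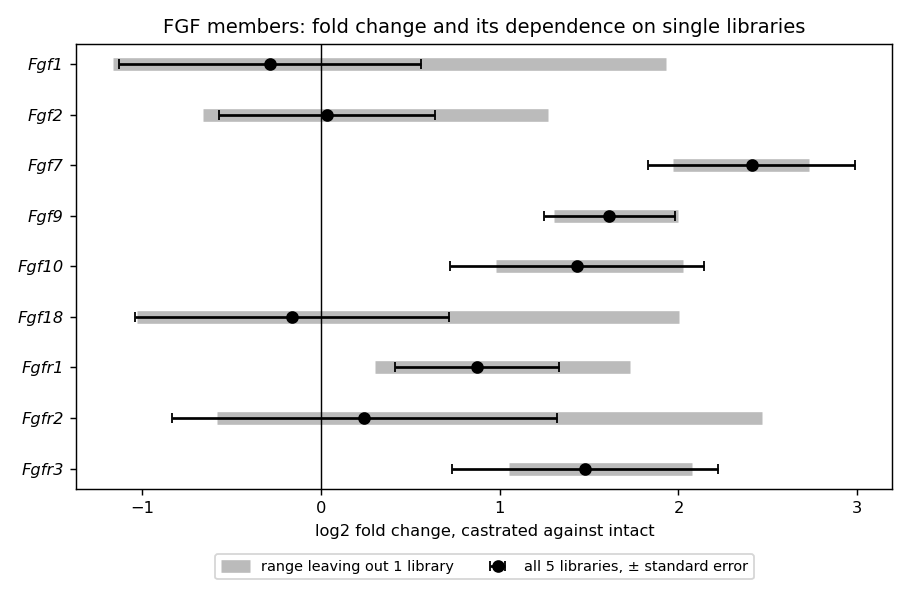
Log2 fold change of the 9 tested FGF genes, castrated against intact (points, with standard errors), and the range of the estimate when each of the 5 libraries was left out in turn (gray bars). The gray bars of Fgf7, Fgf9, Fgf10, Fgfr1 and Fgfr3 stay above 0, and those of Fgf1, Fgf2, Fgf18 and Fgfr2 cross it.

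Among the receptors, Fgfr1 was the one gene whose groups did not overlap. Fgfr1 (chr8:25518759-25575718, plus strand), the main receptor of mesenchymal cells, stood at 110, 122 and 173 CPM in castrated tumors and 106 and 41.4 CPM in intact tumors. The separation was narrow, as castrated replicate 1 and intact replicate 1 were nearly equal. Its log2 fold change was 0.87 (standard error 0.46), with an adjusted p of 0.415 by the quasi-likelihood test. It was 1.73 without intact replicate 1 and 0.30 without intact replicate 2.

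Fgfr2 (chr7:130162451-130266808, minus strand), the receptor of FGF7 and FGF10 on epithelium, fell into 2 levels that cut across the groups. It was low in castrated replicate 1 (19.4 CPM) and intact replicate 1 (14.1 CPM). It was high in castrated replicates 2 and 3 (111 CPM each) and intact replicate 2 (122 CPM). The intact libraries differed by 8.63-fold and the castrated ones by up to 5.73-fold, against a ratio of the group means of 1.18. The log2 fold change was accordingly imprecise, at 0.24 (standard error 1.07; quasi-likelihood adjusted p = 0.934), and ranged from -0.58 to 2.47 when single libraries were left out.

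Fgfr3 (chr5:33721724-33737068, plus strand), an epithelial receptor of FGF9 among other ligands, had 7.75, 28 and 36.2 CPM in castrated and 5.51 and 11.7 CPM in intact tumors. Castrated replicates 2 and 3 were above both intact libraries, and castrated replicate 1 lay between these. The log2 fold change of 1.48 (standard error 0.74) had an adjusted p of 0.401 by the quasi-likelihood test and ranged from 1.05 to 2.08 without single libraries. Fgfr4 (chr13:55152818-55168759, plus strand) was nearly silent. It had 2, 2 and 74 counts in castrated and 9 and 2 counts in intact tumors, so that castrated replicate 3 alone, at 3.61 CPM, exceeded 1 CPM.

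Levels of different genes were set side by side only after division by gene length, as TPM (transcripts relative to all transcripts of a library), with the lengths of the deposited table. Averaged over all 5 libraries, the ligands ranked as Fgf2 (209 TPM), Fgf1 (117), Fgf7 (7.63), Fgf9 (7.26), Fgf10 (5.0) and Fgf18 (2.34). The standard deviations over the 5 libraries were 110, 84.7, 6.58, 4.05, 3.65 and 1.53 TPM in the same order, so that neighbors in this order overlapped in their ranges, apart from the step from Fgf1 to Fgf7. The place of Fgf2 rests on its listed length of 0.692 kb, while its exons in GENCODE M21 span 6.78 kb, 9.80 times as much. With GENCODE lengths, Fgf1 took the largest mean share of ligand TPM, 59.1% in castrated and 66.3% in intact tumors, and Fgf2 took 16.9% and 20.1%. The receptors ranked as Fgfr1 (51.5 TPM), Fgfr2 (31), Fgfr3 (8.99) and Fgfr4 (0.636), with standard deviations of 23.3, 21.6, 7.08 and 1.14 TPM, and neighbors overlapped except Fgfr3 and Fgfr4. Within intact replicate 2 Fgfr2 was above Fgfr1, unlike in the other 4 libraries.

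The makeup of the receptor pool differed more than its size between the intact tumors. The summed TPM of the 4 receptors was 62.3 and 62.5 in intact replicates 1 and 2, but Fgfr1 made up 84.2% of it in the former and 24.5% in the latter. Fgfr2 made up 10.5% and 67.8%. In the castrated libraries the sum was 64.3, 122 and 150 TPM, of which Fgfr1 made up 80.4%, 47.3% and 53.7% and Fgfr2 made up 13.3%, 40.6% and 32.2%. Castrated replicate 1 had nearly the size and makeup of intact replicate 1. Fgfr3 contributed 6.24%, 12% and 12.4% in castrated and 4.82% and 7.66% in intact tumors. The ligand pool was 469, 261 and 312 TPM in castrated and 596 and 99.2 TPM in intact tumors, and Fgf7 made up 1.22%, 4.25% and 5.55% of it against 0.404% and 1.60%. These ligand shares rest on the listed length of Fgf2. With GENCODE lengths the mean share of Fgf7 was 8.17% in castrated and 2.67% in intact tumors, where it was 3.67% and 1.0% with the deposited lengths. In all 10 shares the groups overlapped. Two-sided exact permutation tests of the 10 shares gave p-values from 0.4 to 1, all 1 after Benjamini-Hochberg adjustment, in a design whose smallest possible p is 0.2.

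**Figure D3:**
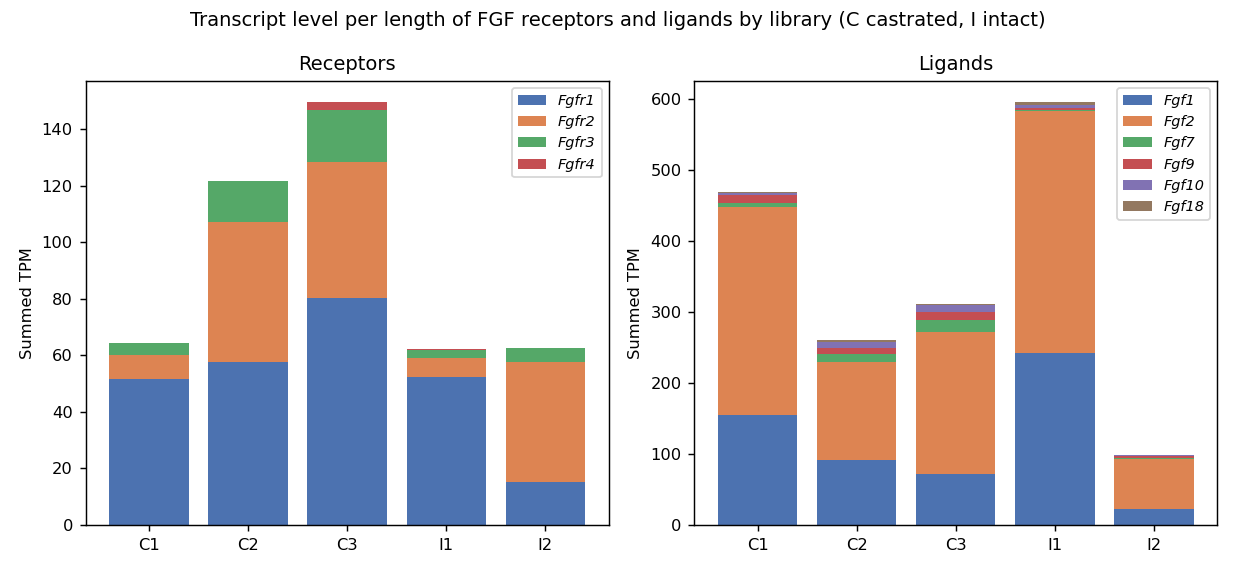
Summed TPM of the 4 receptors (left) and 6 ligands (right) in each castrated (C) and intact (I) library, with segments for the genes and the deposited gene lengths. The receptor bars of C1 and I1 are mostly Fgfr1 and that of I2 mostly Fgfr2, while Fgf1 and Fgf2 fill most of every ligand bar.

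The remaining ligands of the family were mostly at low levels. Of 16 further Fgf genes, 5 were tested, of which 1 was higher and 1 lower at the unadjusted threshold. Fgf20, which belongs to the same subfamily as Fgf9 and is a known target of β-catenin, had 14, 11 and 4 counts in castrated tumors and 75 and 114 counts in intact tumors. It was thus lower in every castrated library, opposite to Fgf9. Its log2 fold change was -3.33 (standard error 0.61; quasi-likelihood adjusted p = 0.289). DESeq2 and the likelihood ratio test both called Fgf20, where they called 286 and 93 of 14612 genes lower. Fgf3, a ligand of the FGF7 subfamily best known from embryos and mammary tumors, stood at 5.72, 1.88 and 3.36 CPM in castrated and 1.25 and 1.16 CPM in intact tumors, all castrated values being higher (log2 fold change 1.60, quasi-likelihood adjusted p = 0.332). The most abundant of the 16 per length was Fgf14, an intracellular member that does not act through the receptors. It had 70.3, 27.1 and 21 CPM against 20.3 and 1.91 CPM, the last castrated value being close to that of intact replicate 1. Its log2 fold change was 1.83 (quasi-likelihood adjusted p = 0.467), 4.39 without intact replicate 1, 0.92 without intact replicate 2 and 1.11 without castrated replicate 1.

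Among 16 coreceptors, proteoglycans and carriers, 15 were tested, and 2 were higher and 0 lower at the unadjusted threshold. The syndecan Sdc3, a heparan sulfate proteoglycan of the cell surface, stood at 151, 310 and 187 CPM in castrated and 59.4 and 72.7 CPM in intact tumors, without overlap (log2 fold change 1.71, standard error 0.37, quasi-likelihood adjusted p = 0.289). Flrt2, a membrane protein that binds FGF receptors, had 21.5, 65.1 and 76.1 CPM against 15.1 and 7.11 CPM (log2 fold change 2.29, standard error 0.67, quasi-likelihood adjusted p = 0.296). The log2 fold change of Flrt2 was 2.95 without intact replicate 1 and 1.80 without intact replicate 2. Klb, the β-klotho coreceptor of endocrine FGFs, had 1, 29 and 82 counts in castrated tumors and 0 in both intact tumors. Its counts were thus in the 2 libraries that also held adipocyte genes, and their part in it was not tested. Sdc1, the most abundant of this list per length and the main syndecan of epithelia, ranged from 397 to 1148 CPM in castrated tumors and stood at 1207 and 242 CPM in intact tumors. The intact libraries enclosed the castrated ones, as they did for Fgf1 and Fgf2.

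Of 12 enzymes that build or trim heparan sulfate, all were tested and 0 were higher or lower at the unadjusted threshold, with a median log2 fold change of 0.01. Sulf1, a sulfatase that removes sulfate groups from heparan sulfate, stood at 199, 135 and 203 CPM against 125 and 75.9 CPM, and Hpse, heparanase, at 22.8, 52.0 and 32.2 CPM against 22.6 and 15.7 CPM. In both genes the groups just failed to overlap (log2 fold changes 0.84 and 0.90, quasi-likelihood adjusted p = 0.328 and 0.380). Glce, the epimerase of the chain, and Hs6st1, a sulfotransferase and the most abundant of the 12 per length, had log2 fold changes of -0.30 and 0.47 with overlapping groups. The value of Hs6st1 was 1.49 without intact replicate 1 and turned to -0.15 without intact replicate 2. Of 11 adaptors and effectors, 0 passed the unadjusted threshold and the median was 0.02. Grb2, the adaptor that links receptors to RAS, had 128, 198 and 157 CPM against 117 and 87.1 CPM (log2 fold change 0.65, quasi-likelihood adjusted p = 0.344), while Frs2, the docking protein of the receptors, and Crkl had log2 fold changes of -0.31 and 0.24 with overlapping groups.

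Splicing factors that select between the epithelial and mesenchymal forms of Fgfr2 were lower in castrated tumors in 4 of 5 cases by the position of the libraries, against 16.1% of all tested genes. None of the 5 passed the unadjusted threshold with its fold change. The exception by position was Esrp1, at 124, 139 and 115 CPM in castrated and 91.5 and 136 CPM in intact tumors. Its groups overlapped (log2 fold change 0.14, quasi-likelihood adjusted p = 0.806). Esrp2, which favors the epithelial exon, stood at 58.4, 49.1 and 47.6 CPM in castrated and 96.8 and 88.7 CPM in intact tumors. The gap between the groups was wider than the spread in either, at a log2 fold change of -0.84 (standard error 0.19; quasi-likelihood adjusted p = 0.289). Rbm47, Rbfox2 and Ptbp1 had all castrated values below both intact values, with log2 fold changes of -0.53, -0.34 and -0.34 and quasi-likelihood adjusted p-values of 0.401, 0.413 and 0.444. The list was not sorted by the exon each factor favors, so the count of 4 of 5 gives no direction for the splice forms. Gene counts do not separate the splice forms of Fgfr2, so their ratio was not measured.

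Of 14 feedback and target genes of the pathway, 13 were in the table and all 13 were tested, and 1 was higher and 0 were lower at the unadjusted threshold, with a median log2 fold change of -0.14. The higher one was Etv1, an ETS factor, at 17.2, 26.5 and 27.8 CPM in castrated and 7.35 and 4.14 CPM in intact tumors (log2 fold change 2.05, standard error 0.42, quasi-likelihood adjusted p = 0.289). Spry2, a Sprouty inhibitor, stood at 59.4, 40.0 and 49.4 CPM against 30.1 and 33.6 CPM, without overlap (log2 fold change 0.64, quasi-likelihood adjusted p = 0.328).

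Etv4, Dusp6 and several other feedback genes were highest in castrated replicate 1 and intact replicate 1, the libraries with the highest Fgf1 and Fgf2. Etv4 stood at 24.3, 9.81 and 6.58 CPM in castrated and 55.2 and 10.8 CPM in intact tumors. Dusp6, an ERK phosphatase and the most abundant of the list per length, stood at 378, 161 and 123 CPM against 288 and 46.2 CPM. The quasi-likelihood adjusted p was 0.508 for Etv4 and 0.854 for Dusp6, with overlapping groups. Spry4 and Etv5, chosen after their values were seen, had an even wider range. Spry4 stood at 182, 56.0 and 20.5 CPM in castrated and 331 and 9.02 CPM in intact tumors, and Etv5 at 458, 172 and 82.9 CPM against 582 and 25.1 CPM. In 7 of the 13 feedback genes these 2 libraries held the top values, as they did in 14.3% of all tested genes, and in 4 of the 13 intact replicate 2 was also the lowest. The same full order was seen in 2 of the 9 tested FGF genes, Fgf1 and Fgf2, in 6 of 15 coreceptors and carriers and in 4 of 12 heparan sulfate enzymes. It was seen in 1 of 11 adaptors and effectors, in 0 of 5 other tested FGF ligands and in 7.19% of all tested genes. This order was noticed in the data, has 5 libraries behind it, and is given as a description.

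**Figure D4:**
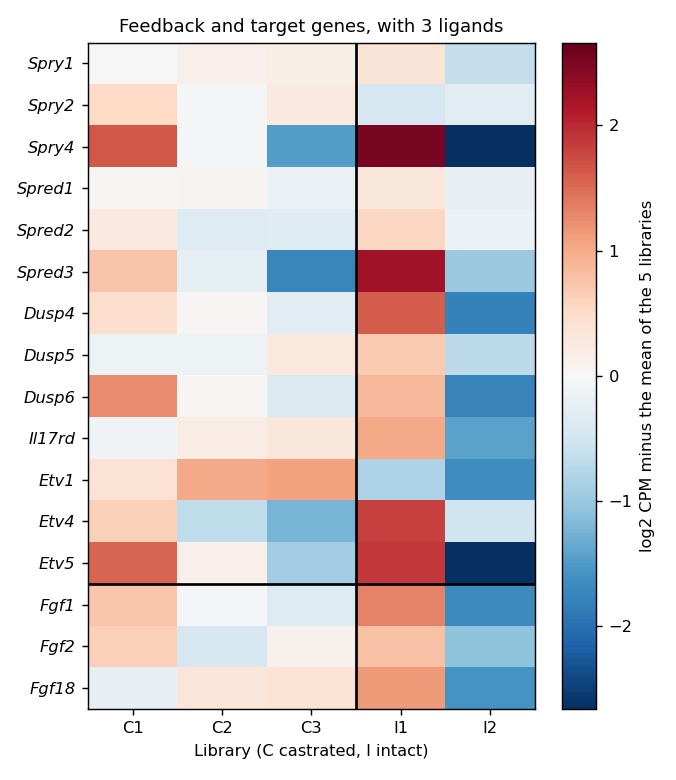
Log2 CPM of 13 feedback and target genes and of Fgf1, Fgf2 and Fgf18 (below the line), each relative to its mean over the 5 libraries, in castrated (C) and intact (I) tumors. Spry4, Etv5, Dusp6, Fgf1 and Fgf2 are high (red) in C1 and I1 and lowest (blue) in I2, whereas Etv1 is low in both intact libraries.

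By the distance between centered log2 CPM profiles over the 5 libraries, Mfap5, a microfibril protein gene, was nearest to Fgf2 (Euclidean distance 0.206), followed by Hey1 (0.229) and Bmp1 (0.273). Nearest to Fgfr1 were Magi2 (0.150), Ntn3 (0.163) and Tspan18 (0.228). These genes were found by searching all tested genes over only 5 libraries. For scale, the genes with the smallest p of the whole table were Atp2a3, a calcium pump of the endoplasmic reticulum, and Tmem30b, a flippase subunit, with log2 fold changes of 3.48 and 2.0 and an adjusted p of 0.289 each by the quasi-likelihood test.

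Genes of several stromal cell types were also higher in castrated tumors at the unadjusted threshold. Of 8 fibroblast genes 4 were higher and 0 lower at the unadjusted threshold, with summed levels of 4574, 5582 and 7372 CPM in castrated and 4253 and 2539 CPM in intact tumors and Dcn as the most abundant per length. The separation of these sums rested on Dcn, at 998, 2662 and 3825 CPM in castrated and 487 and 495 CPM in intact tumors. Without Dcn the sums of the groups overlapped. Of 7 smooth muscle genes, led by Tagln, 6 were higher and 0 lower, with sums of 407, 706 and 649 CPM against 245 and 156 CPM. Of 7 macrophage genes, led by C1qa, 5 were higher and 0 lower, with sums of 703, 2204 and 1152 CPM against 483 and 465 CPM. Of 7 adipocyte genes, led by Fabp4, 5 were higher and 0 lower, and Adipoq, which defines these cells, had 0.523 CPM in castrated replicate 1 against 68.8 and 68.3 CPM in replicates 2 and 3. No gene of these 4 lists was at 0 in all libraries. The part of these cells in the levels of Fgf7, Fgf9, Fgf10 and Fgfr1 was not tested.

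Relative to the mean log2 CPM of the fibroblast genes, Fgf7 stood at -5.71, -4.91 and -4.55 in castrated and -6.54 and -6.05 in intact tumors, a difference of 1.24 without overlap. Relative to Dcn alone, chosen after its values were seen, Fgf7 stood at -7.24, -7.72 and -7.58 against -7.50 and -7.71, a difference of 0.09 with overlapping groups, and relative to Lum the difference was 0.16, also with overlap. Since Dcn and Lum were chosen for log2 fold changes close to that of Fgf7 (2.35 and 2.23), these small differences follow from the choice. The other fibroblast genes had log2 fold changes of -0.36 (Col1a1), 0.01 (Col1a2), 0.09 (Col3a1), 0.41 (Pdgfrb), 1.52 (Pdgfra) and 1.68 (Thy1). Relative to the list mean Fgf10 and Fgf2 overlapped between the groups, with differences of 0.27 and -0.75. Of 6 luminal epithelial genes, led by Krt18, 0 were higher or lower at the unadjusted threshold and 5 had a negative log2 fold change. Their sums were 3573, 3449 and 4160 CPM in castrated and 5129 and 3446 CPM in intact tumors, so the groups overlapped. Of 4 basal genes, 1 was higher, Krt15, and the basal sum was 314, 342 and 852 CPM against 76.4 and 702 CPM. Krt5, Krt14 and Trp63 had log2 fold changes of -0.35, -0.21 and -0.19 with overlapping groups. Like Fgfr2, the basal sum was lowest in intact replicate 1 and high in intact replicate 2. The likeness did not extend to the castrated libraries. Replicates 1 and 2 there had similar basal sums but Fgfr2 at 19.4 and 111 CPM.

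**Figure D5:**
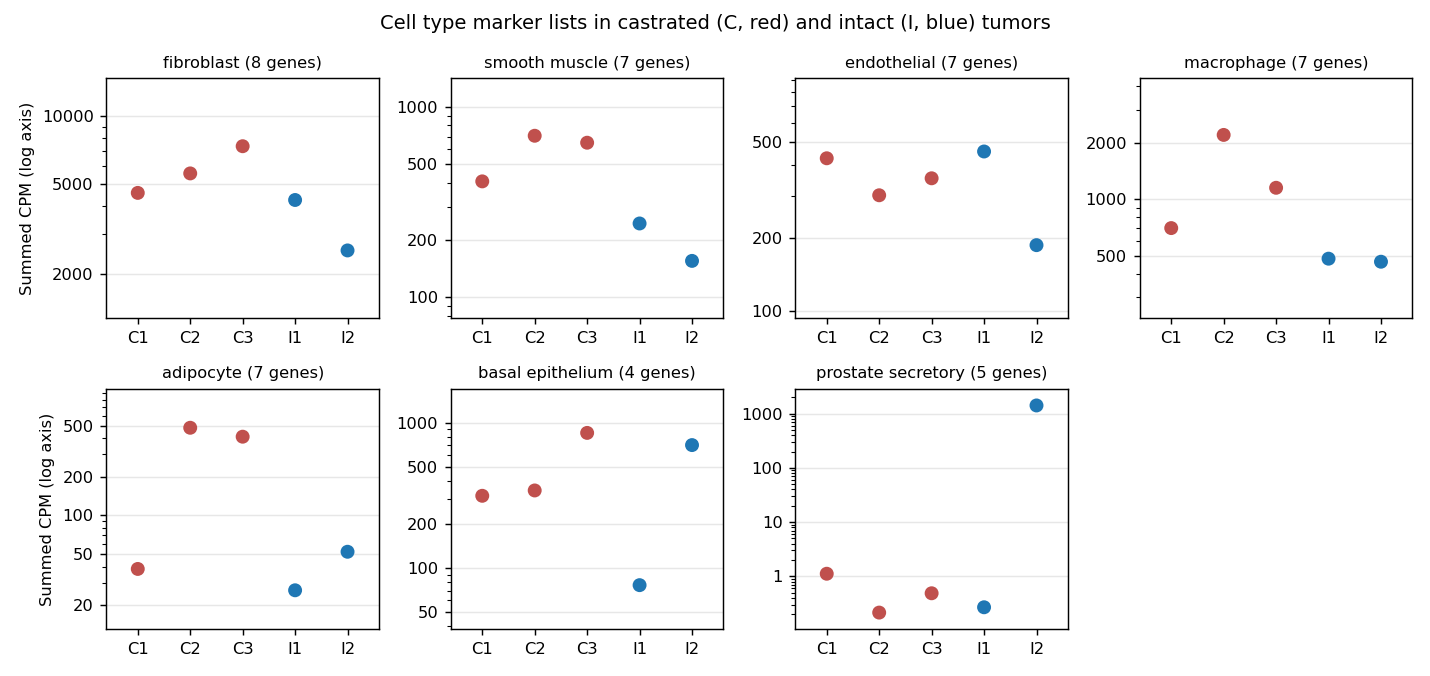
Summed TMM-scaled CPM (log axis) of 7 lists of cell type markers in castrated (C1 to C3, red) and intact (I1 and I2, blue) tumors. Smooth muscle, fibroblast and macrophage sums are higher in every castrated library, the fibroblast sum only with Dcn included. Adipocyte genes stand out in C2 and C3, and prostate secretory genes in I2.

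Of the other lists, endothelial genes, led by Cdh5, were higher in 1 and lower in 0 of 7 cases, with sums of 427, 301 and 353 CPM in castrated and 456 and 187 CPM in intact tumors. T cell genes, led by Cd3g, were higher or lower in 0 of 5, with sums of 11.9, 43.9 and 40.3 CPM against 2.91 and 32.3 CPM, and neuroendocrine genes were higher in 4 of 5 tested and lower in 0. Ncam1, the most abundant of the neuroendocrine genes per length, was the exception (log2 fold change -0.37, overlapping groups), and their sums, at 35.5, 46.9 and 55.7 CPM against 47.1 and 13 CPM, overlapped. Seminal vesicle genes, led by Svs4, summed to at most 0.174 CPM in 4 libraries and to 7.48 CPM in intact replicate 2. Skeletal muscle genes, led by Mylpf, summed to between 2.06 and 2.97 CPM in all 5 libraries.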

How the data were processed

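RNA of TripleTg prostate tumors (3 castrated samples, 2 intact) had been depleted of ribosomal RNA and sequenced in read pairs. For trimming the authors used Trimmomatic 0.39, for alignment to mm10 STAR 2.7.9 and for counting per gene HTSeq 2.0.2. The deposited table gives unnormalized read counts per gene, beside a gene length in kilobases that was used here for TPM. The strand setting of the counting was not given in the sources used here, so reads of overlapping genes on opposite strands may not be told apart. Table entries whose span overlaps an FGF gene had at most 83 counts in a library.

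Analysis used edgeR 4.0.16, DESeq2 1.42.0 and limma 3.58.1 in R 4.3.3. A gene was tested if 2 or more samples had a CPM above 1. The main test, on the whole table, was the quasi-likelihood F-test of edgeR after TMM scaling. Alternatives were other tests, scalings, filters, TPM as input, a replicate block and leaving out each library. CPM values are scaled by TMM factors, log2 CPM used a prior count of 2, and TPM as input to limma a pseudocount of 1. A call needed a p below 0.05 after Benjamini-Hochberg adjustment and a log2 fold change beyond 1 in either direction. The procedure was tested on simulated data. The FGF genes, the gene lists and the motifs were chosen with earlier results of these data known. Named were all 10 FGF genes, for each pathway list the 3 tested genes with the smallest p and the most abundant gene per length, the most abundant gene of each marker list, the 3 nearest profiles of the most abundant ligand and receptor, and the 2 genes with the smallest p. Tgm4, Msmb, Adipoq, Lum, the other fibroblast genes, Spry4 and Etv5 were singled out after their values were seen, as was Klb in its counts per library. Esrp1, Krt5, Krt14 and Trp63 were also named after their values were seen. Some results on marker genes are not reported here. GENCODE lengths, Dcn or Lum in place of the fibroblast list, and 6 luminal genes in place of a longer list, were alternatives chosen after seeing the data. Each replicate has an identifier of its own in the labels, which do not state that each came from a separate mouse; p-values measure the spread between these samples, which may then be technical in part. Total counts per sample ranged from 18951782 to 28015507.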

Additional observations from a re-analysis of the deposited data

How the results depend on the processing

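The number of genes called rested on the test. It was 0 with edgeR's quasi-likelihood test, with 1596 at an unadjusted p, 369 by the likelihood ratio test and 989 by DESeq2, and from 0 to 1 when single libraries were left out, the 1 without intact replicate 1. The number of FGF genes without overlap was 3 and ranged from 3 to 8. It was 5 without castrated replicate 1 and 8 without either intact library, where fewer values can overlap. The shares of all tested genes separated in these settings are not given here, so these counts are not read as a result about the FGF genes. Of the 31 FGF and pathway genes for which fold changes were recomputed, 23 kept their direction under every setting in which they were tested, Fgf7, Fgf9, Fgf10, Fgfr1 and Fgfr3 among them. Fgf20 and Klb, also among the 23, failed the filter in 3 settings each, and so were not tested there. Without single libraries, log2 fold changes ranged from -1.16 to 1.93 for Fgf1, from -0.66 to 1.27 for Fgf2, from -1.03 to 2.01 for Fgf18, from -0.58 to 2.47 for Fgfr2, from -0.80 to 1.58 for Sdc1, from -0.15 to 1.49 for Hs6st1, from -2.06 to 0.35 for Etv4 and from -0.43 to 2.28 for Dusp6. With TPM in limma, Fgf1, Fgf18 and Sdc1 turned to 0.43, 0.17 and 0.39, and with limma voom to 0.31, 0.41 and 0.24. The replicate block turned them to 0.55, 0.22 and 0.62. With CPM above 1 in all samples Sdc1 turned to 0.0065. The cause of these changes was not tested. Same-numbered samples share only a number, as a castrated and an intact sample cannot be of one mouse, and their deviations correlated at 0.149 and -0.045. The block called 0 genes, with 975 at an unadjusted p. Fgfr4 and Fgf18 had few counts. What greater depth would change was not tested.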
